A study of Homo sapiens with 6 samples.

Results

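RNA polymerase I transcribes the repeated ribosomal RNA genes (rDNA) in the nucleolus and makes the precursor of the large ribosomal RNAs. The genes described here encode its subunits (POLR1A, POLR1B, POLR1C, POLR1D, POLR1E and TWISTNB, now also named POLR1F) and the factors that bring it to the rDNA promoter (RRN3, UBTF, TAF1B and TAF1D). They were chosen by name, as 10 of the 26485 gene rows in the table of counts. At the rDNA promoter UBTF bends and occupies the DNA, the selectivity complex SL1 (TBP with the TAF1 proteins) marks the start site, and RRN3 links the enzyme to SL1. POLR1C and POLR1D are also subunits of RNA polymerase III, which makes transfer RNAs and the smallest ribosomal RNA, and further small subunits are shared by all of the nuclear RNA polymerases. Because ribosome production is costly, transcription by RNA polymerase I is tied to growth signals and to MYC.

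The cells were THP1, a line from a human acute monocytic leukemia. They received the plant steroidal lactone withaferin A (WFA) or only its solvent DMSO for 6 h, with 3 replicate libraries per group. By the study's methods the replicates were independent experiments, and each gave a DMSO and a WFA sample. The labels give the WFA dose as 1 mM and the methods of the study as 1 μM. All libraries came from the same unmodified line, and RNA was measured, not protein or rRNA synthesis. Total counts were between 11006035 and 13872810 per library. Of 9 monocytic and myeloid markers 5 were called lower with WFA and 0 higher, against 24.7% and 25.8% of all tested genes. Their summed level was 2383 to 2943 CPM with DMSO and 1984 to 2791 CPM with WFA. Most of that sum came from LYZ, which was not called. LYZ lay between 1381 and 2089.5 CPM (the usual depth-scaled unit of counts, here with TMM factors) in all libraries, while MPO was at 3.22 CPM or less and CD14 at 7.33 CPM or less. Among markers of lymphoid, erythroid and megakaryocytic cells, CD3E and MS4A1 had at most 1 count in a library, and HBB and PF4 were at 0. What part these shifts have in the results was not tested. Values are shares of a library's counts, so fewer cells of a type and less RNA per cell cannot be told apart.

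Of the 10 genes, 9 passed the filter on low counts, and their lowest count in any library was 168. With WFA 8 of the 9 were called lower (edgeR's quasi-likelihood test, adjusted p under 0.05), whereas 24.7% of all 12854 tested genes were lower. In edgeR, in DESeq2 and at an unadjusted p under 0.05, 0 were higher, whereas 25.8% of all tested genes were higher. For each of the 9 genes every WFA library lay below every DMSO library, which held for 28.5% of all tested genes. Their median log2 fold change was -0.96, against 0.02 over all tested genes, and within same-numbered libraries the medians were -0.91, -0.77 and -1.09. A fall of more than 2-fold was called for POLR1A, POLR1B and POLR1C, that is 3 of the genes, and for 5.2% of all tested genes. RRN3 could not be tested.

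Upstream sequences are shown for 4 RNA polymerase I subunit genes, so that the promoters of the 3 that fell most can be read beside that of POLR1D, which was not called. Each holds 250 bases before and 50 bases from the RefSeq start of the gene (GRCh38.p14), at chr19:45406394-45406693 on the plus strand for CD3EAP, chr2:112541786-112542085 on the plus strand for POLR1B, chr2:86105837-86106136 on the minus strand for POLR1A and chr13:27620493-27620792 on the plus strand for POLR1D. CD3EAP, now also named POLR1G, is a further RNA polymerase I subunit gene. Capitals mark the motifs described after the sequences.
CD3EAP: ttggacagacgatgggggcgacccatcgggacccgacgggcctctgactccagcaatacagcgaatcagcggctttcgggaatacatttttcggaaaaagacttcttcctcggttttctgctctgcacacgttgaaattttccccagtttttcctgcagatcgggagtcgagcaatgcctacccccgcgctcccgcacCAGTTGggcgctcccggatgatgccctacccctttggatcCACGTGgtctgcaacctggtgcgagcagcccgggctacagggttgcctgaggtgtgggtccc
POLR1B: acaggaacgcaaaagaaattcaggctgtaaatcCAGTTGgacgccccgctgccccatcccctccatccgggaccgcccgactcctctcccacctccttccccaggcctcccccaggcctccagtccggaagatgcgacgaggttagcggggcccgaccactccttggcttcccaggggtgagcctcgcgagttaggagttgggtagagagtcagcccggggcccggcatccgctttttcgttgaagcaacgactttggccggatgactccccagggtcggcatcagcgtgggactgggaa
POLR1A: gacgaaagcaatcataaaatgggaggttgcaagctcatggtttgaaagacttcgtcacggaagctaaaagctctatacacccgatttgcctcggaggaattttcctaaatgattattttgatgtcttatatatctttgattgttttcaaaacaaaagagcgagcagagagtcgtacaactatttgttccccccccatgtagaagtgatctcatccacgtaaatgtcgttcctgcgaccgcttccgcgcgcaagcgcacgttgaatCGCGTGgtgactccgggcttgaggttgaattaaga
POLR1D: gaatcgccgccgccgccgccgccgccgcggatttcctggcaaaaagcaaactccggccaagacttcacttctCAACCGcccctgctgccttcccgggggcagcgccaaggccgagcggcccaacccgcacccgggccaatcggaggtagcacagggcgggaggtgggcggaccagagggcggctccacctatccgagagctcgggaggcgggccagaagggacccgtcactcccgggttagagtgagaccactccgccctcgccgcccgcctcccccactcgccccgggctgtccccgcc

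The letters CACGTG, the E-box that MYC and other factors of its class bind, were found on either strand in 0 of the 9 windows that RefSeq holds for the 10 genes, in CD3EAP, where they begin 12 bases before the start, and in 7.26% of 35116 promoter windows of this length. The related letters CGCGTG were in 4 of the 9 windows, those of POLR1A, POLR1C, RRN3 and UBTF, and in 11.4% of all windows. TAACNG or CAACNG, a core that c-MYB can bind, were in 4 of the 9 windows, those of POLR1B, POLR1D, TWISTNB and TAF1D, and in 46.2% of all windows. The NRF1 core GCATGCGC was in 0 of the 9 and in 3.05% of all windows. POLR1E has no entry among the windows. The MYB core stands in the windows of CD3EAP, POLR1B and POLR1D alike.

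The genes for the large, catalytic subunits had the lowest log2 fold changes among the 9 tested genes. POLR1A encodes the largest subunit (chromosome 2, 86020216 to 86105886, minus strand, GRCh38.p14 as for all positions). It had 88.0, 77.9 and 100.5 CPM in DMSO replicates 1, 2 and 3, and 24.4, 33.7 and 25.3 CPM in the WFA replicates. The groups lay far apart, and WFA replicate 2 was the highest of the treated libraries. It fell by 1.67 on the log2 scale (SE 0.13, adjusted p = 8.52e-08), which left 31.3% of the DMSO level. POLR1B (chromosome 2, 112542036 to 112579818, plus strand) encodes the other large subunit, which completes the active centre. It went from 84.8, 88.4 and 99.4 CPM with DMSO to 21.8, 27.0 and 20.4 CPM with WFA. This was the steepest fall among the 9 tested genes, by 1.97 on the log2 scale (SE 0.11, adjusted p = 4.37e-09), with 25.4% of the DMSO level left. The 95% intervals of POLR1A, -1.95 to -1.40, and of POLR1B, -2.22 to -1.73, overlapped. Only 0.739% of all tested genes had a fold change as low as that of POLR1B.

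POLR1E and CD3EAP encode the partners of a heterodimer that is held by RNA polymerase I and aids initiation and elongation. POLR1E (chromosome 9, 37485948 to 37503697, plus strand) had 89.1, 88.6 and 92.6 CPM with DMSO and 44.5, 49.8 and 43.4 CPM with WFA. The DMSO libraries differed little, and the gene fell by 0.97 on the log2 scale (SE 0.09, adjusted p = 4.97e-07). CD3EAP (chromosome 19, 45406644 to 45410737, plus strand) had 32.4, 32.4 and 38.7 CPM with DMSO and 6.04, 8.30 and 6.61 CPM with WFA. It fell by 2.30 on the log2 scale (SE 0.15, adjusted p = 1.06e-08), which is more than each of the 9 tested genes. The log2 ratio of CD3EAP to POLR1E within a library was -1.39 ± 0.11 with DMSO and -2.73 ± 0.15 with WFA (SD, n = 3 each), and the groups did not overlap. TWISTNB (chromosome 7, 19695461 to 19709037, minus strand) encodes a subunit of the stalk, the part of the enzyme that meets RRN3. It had 82.0, 81.4 and 91.8 CPM with DMSO and 43.6, 47.7 and 39.4 CPM with WFA, and fell by 0.96 on the log2 scale (SE 0.10, adjusted p = 1.33e-06). Its groups did not overlap, and WFA replicate 2 was the highest treated library, as for POLR1A and POLR1B.

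The pair of subunits shared with RNA polymerase III had unlike values. POLR1C and POLR1D form the heterodimer on which both enzymes are assembled, and variants in either gene cause Treacher Collins syndrome. POLR1C (chromosome 6, 43517089 to 43562407, plus strand) had 46.5, 53.4 and 51.4 CPM with DMSO and 17.6, 20.7 and 15.6 CPM with WFA. It fell by 1.48 on the log2 scale (SE 0.12, adjusted p = 1.23e-07), with wide separation of the groups. POLR1D (chromosome 13, 27620743 to 27667411, plus strand) had 101, 102 and 109 CPM with DMSO and 89.4, 98.1 and 96.9 CPM with WFA. Its WFA libraries lay just below its DMSO libraries, and the log2 fold change of -0.13 (95% interval -0.31 to 0.05, adjusted p = 0.205) did not pass the threshold. Scaling by total counts instead of TMM gave a log2 fold change of -0.22, which did pass (adjusted p = 0.0488). The log2 ratio of POLR1C to POLR1D within a library fell from -1.04 ± 0.10 to -2.41 ± 0.20 (SD, n = 3 each). On the plus-strand gene POLR1C, 348 exonic bases overlap exons of XPO5, 129 those of YIPF3 and 140 those of LRRC73 on the other strand in GENCODE 29. There the gene starts at 43509702, before the RefSeq start printed here. The annotation used for counting, and whether counting used strand, are not given in the sources used here.

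**Figure D1:**
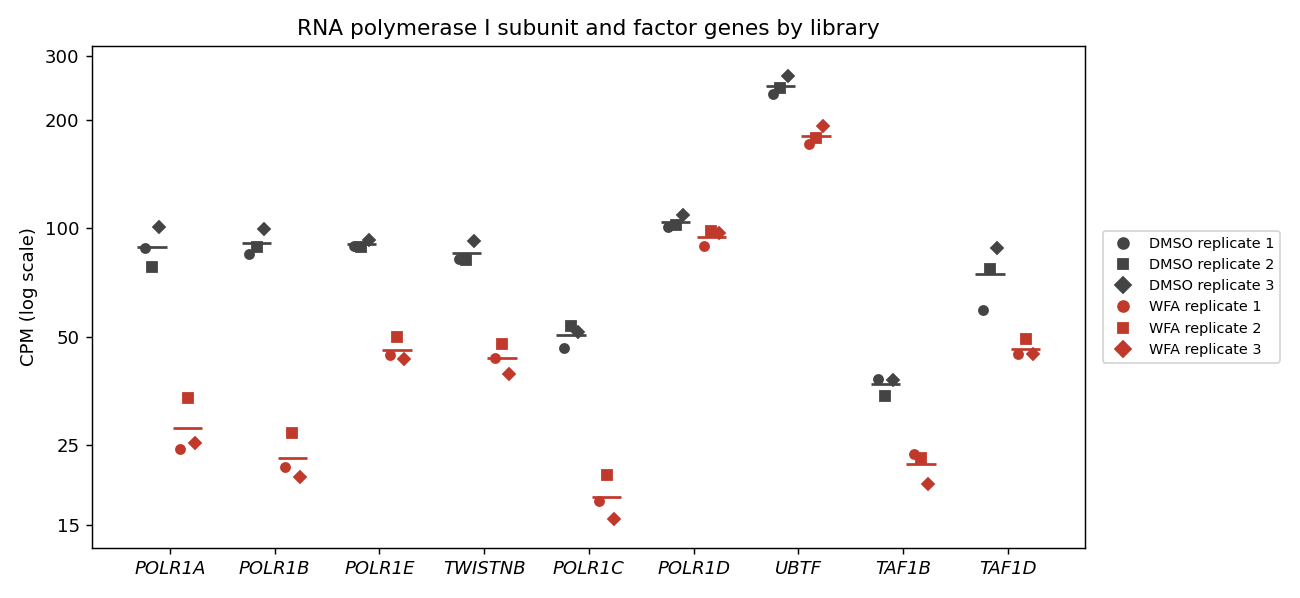
CPM (log axis) of the 9 tested genes in each library, with DMSO in grey, WFA in red, a symbol for each replicate number and a line at the mean of each group. The WFA libraries lie below the DMSO libraries for each gene, narrowly for POLR1D and by the most for POLR1B, whose means are 90.9 and 23.1 CPM.

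The 3 tested promoter factors fell less than POLR1A, POLR1B, POLR1C, POLR1E and TWISTNB, but more than POLR1D. The 95% intervals of TAF1B, -0.97 to -0.49, and TAF1D, -0.95 to -0.42, overlapped those of POLR1E, -1.16 to -0.78, and TWISTNB, -1.17 to -0.76. UBTF (chromosome 17, 44205040 to 44221304, minus strand), the HMG-box protein that coats active rDNA, had 235, 244 and 265 CPM with DMSO and 171, 177 and 192 CPM with WFA. It fell by 0.46 on the log2 scale (SE 0.09, adjusted p = 0.000441), and the change was -0.46 on the log2 scale in each of the 3 pairs of same-numbered libraries. TAF1B (chromosome 2, 9843442 to 9934416, plus strand), the SL1 subunit related to the initiation factor TFIIB, had 38.3, 34.3 and 38.0 CPM with DMSO and 23.7, 23.1 and 19.5 CPM with WFA. The groups did not overlap, and it fell by 0.73 on the log2 scale (SE 0.11, adjusted p = 7.24e-05). TAF1D (chromosome 11, 93730194 to 93741495, minus strand), a further SL1 subunit, had 59.2, 77.0 and 87.9 CPM with DMSO and 44.8, 49.2 and 44.9 CPM with WFA. Its DMSO libraries varied most of the 9 genes relative to their mean, at 74.7 ± 14.5 CPM (SD, n = 3), with replicate 1 lowest. It fell by 0.69 on the log2 scale (SE 0.12, adjusted p = 0.000302). TAF1D spans 8 small nucleolar RNA genes in GENCODE 29. There its exons share 250 bases with CEP295, 173 with C11orf54 and 88 with MED17 on the other strand, so some of its reads could belong to these. The GENCODE 29 gene runs from 93729948 to 93784391, beyond the RefSeq positions printed here, and the annotation used for counting is not known.

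The rest of SL1 was not uniform. TAF1A had 18.9 ± 1.11 CPM with DMSO and 12.3 ± 1.46 CPM with WFA (SD, n = 3 each). The groups did not overlap, and it fell by 0.62 on the log2 scale (SE 0.13, adjusted p = 0.00126). TAF1C had 29.8, 34.5 and 34.7 CPM with DMSO and 25.3, 34.2 and 38.1 CPM with WFA. Its groups overlapped, and its log2 fold change was -0.02 (95% interval -0.31 to 0.27, adjusted p = 0.916). TBP, which also serves the other nuclear polymerases, had 46.1, 44.6 and 48.1 CPM with DMSO and 39.0, 33.1 and 39.6 CPM with WFA, and fell by 0.31 on the log2 scale (SE 0.10, adjusted p = 0.0182). That call was lost without DMSO replicate 3 (adjusted p = 0.0569) and without WFA replicate 2 (adjusted p = 0.0867).

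Among factors that act at the end of the transcription unit, TTF1, which binds the terminator, was not called, at a log2 fold change of -0.04 (95% interval -0.25 to 0.16, adjusted p = 0.748). PTRF, a release factor better known as the caveolar coat protein cavin, had 0.844, 1.82 and 1.33 CPM with DMSO and 4.33, 3.62 and 3.91 CPM with WFA. These are low levels, between 12 and 53 counts per library. PTRF rose by 1.58 on the log2 scale (SE 0.28, adjusted p = 0.00025).

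The 5 small subunits shared by RNA polymerases I, II and III had log2 fold changes between -0.47 and 0.30. POLR2F fell by 0.38 on the log2 scale (SE 0.11, adjusted p = 0.0102) and POLR2H fell by 0.47 on the log2 scale (SE 0.12, adjusted p = 0.00402). POLR2E, at 0.11 (95% interval -0.09 to 0.31, adjusted p = 0.355), and POLR2K, at -0.09 (95% interval -0.29 to 0.11, adjusted p = 0.465), did not pass the threshold. POLR2L had 24.6, 23.5 and 18.8 CPM with DMSO and 22.8, 32.3 and 27.3 CPM with WFA. Its log2 fold change was 0.30 (95% interval -0.01 to 0.60, adjusted p = 0.0962). It passed with the replicate number as a block, at 0.29 (adjusted p = 0.0173), and without WFA replicate 1, at 0.42 (adjusted p = 0.0286). The value was smaller and not called without WFA replicate 2, at 0.16 (adjusted p = 0.388), and without DMSO replicate 3, at 0.19 (adjusted p = 0.326).

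**Figure D2:**
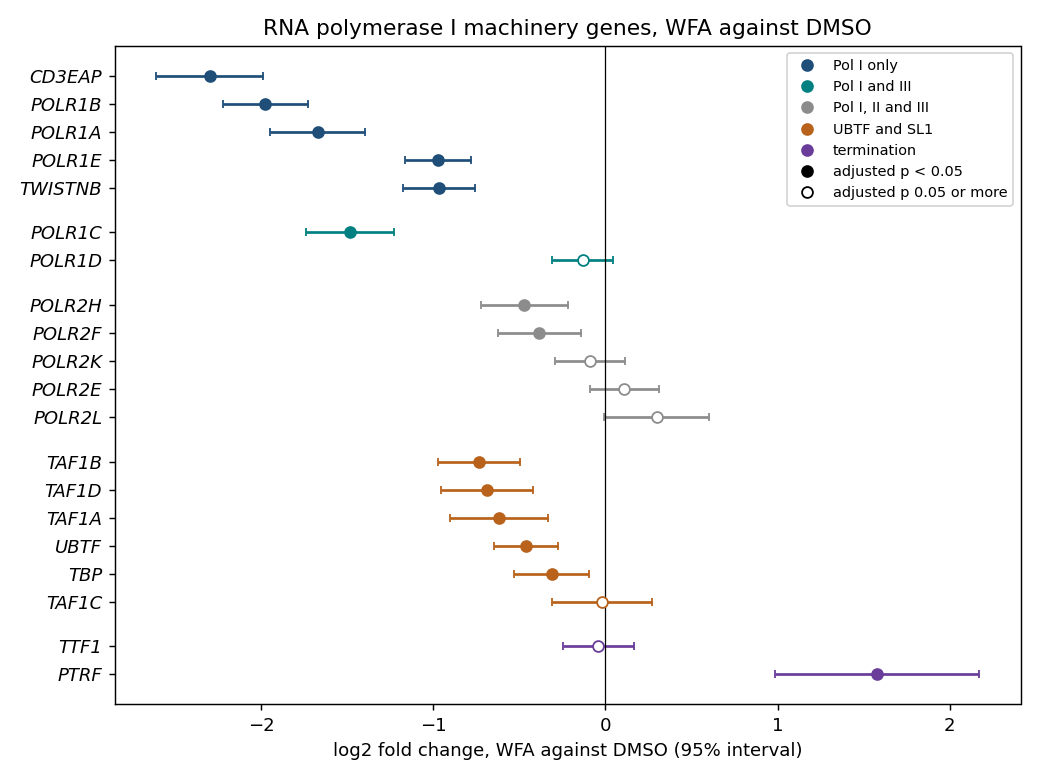
Log2 fold change of WFA against DMSO with its 95% interval for the tested subunits of RNA polymerase I and the factors of rDNA initiation and termination, coloured by the enzymes that use them or by their role; filled points passed an edgeR adjusted p-value of 0.05. CD3EAP, POLR1B and POLR1A lie farthest to the left, at -2.30, -1.97 and -1.67, POLR1D lies at -0.13, and PTRF lies at 1.58.

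RRN3, the initiation factor on which growth control of RNA polymerase I converges, had a count of 1 in DMSO replicate 1 and in WFA replicate 2 and 0 in the other 4 libraries. Both groups were thus at the floor of 3 counts, and no fold change is given. Its transcribed pseudogenes were counted more often. RRN3P1 had 77, 62 and 80 counts with DMSO and 33, 43 and 47 with WFA, and fell by 0.69 on the log2 scale (SE 0.22, adjusted p = 0.0177). RRN3P2 and RRN3P3 had between 31 and 75 counts per library and log2 fold changes of -0.02 and -0.12, which were not called (adjusted p = 0.950 and 0.709). These are near-identical copies of RRN3, so which gene their reads came from is uncertain. Summed over RRN3 and the 3 pseudogenes, the counts were 165, 176 and 196 with DMSO and 126, 143 and 134 with WFA, at a log2 fold change of -0.29 (SE 0.15, adjusted p = 0.139), which did not pass.

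Most genes within 1 Mb of RRN3 were also near 0, but PDXDC1, the nearest by midpoint at 20.2 kb, had 68 to 107 counts per library. Of 19 protein-coding genes in the table with midpoints within 1 Mb of RRN3 (chromosome 16, 15060022 to 15094335, minus strand), itself included, 13 had at most 3 counts in each library, or 68.4%, against 30.3% of the 19082 protein-coding genes that were matched to GENCODE 29. They include PARN, BFAR and NDE1, genes of general cell function, each with 0 counts in all 6 libraries, and these names were picked after their values were seen. The same held for the subunit gene ZNRD1, now also named POLR1H (chromosome 6, 30060062 to 30064907, plus strand), which had 0 counts in each library. Within 1 Mb of it 49 of 52 genes, or 94.2%, had at most 3 counts in each library. Many of these are olfactory receptor genes, but PPP1R11 and ABCF1, picked in the same way, also had 0 counts. The values of RRN3 and ZNRD1 are therefore given as listed and not as levels of expression, and how reads in these stretches were lost or never produced was not tested.

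**Figure D3:**
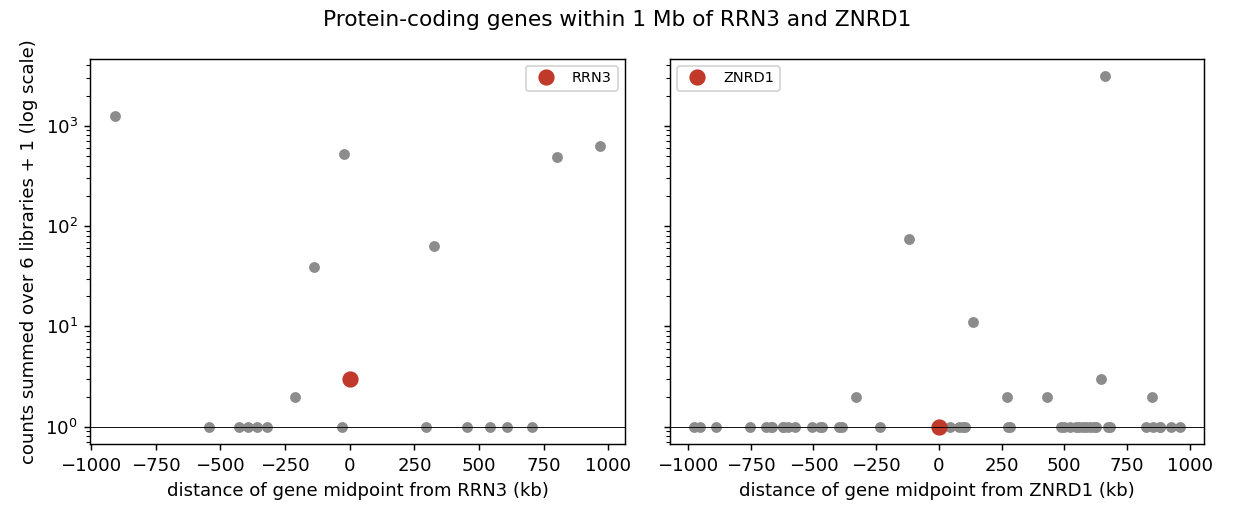
Counts summed over the 6 libraries plus 1 (log axis) of protein-coding genes against the distance of their midpoints from RRN3 (left) or ZNRD1 (right), in kb, with the named gene in red. RRN3, with 2 counts in all, and ZNRD1, with 0, each stand among neighbours that are mostly on or close to the line that marks 0 counts. PDXDC1, 20.2 kb to the left of RRN3, has 518 counts, MKL2 farther left has 1238, and TUBB to the right of ZNRD1 has 3131.

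Levels were compared between genes per length, as CPM per kilobase of merged exons in GENCODE 29, which includes every annotated transcript and so understates genes with many long forms. With DMSO the levels of POLR1E (35.9 ± 0.864 CPM per kilobase) and UBTF (35.5 ± 2.14) were highest and did not differ beyond their spread (SD, n = 3 each). TWISTNB (21.3 ± 1.46) and POLR1B (14.4 ± 1.2) followed. POLR1D (9.26 ± 0.408), POLR1C (9.09 ± 0.639), TAF1B (9.07 ± 0.549) and TAF1D (8.87 ± 1.72) lay within each other's spread, and POLR1A (6.57 ± 0.835) was lowest (SD, n = 3 each). The order was another with WFA. UBTF stood alone at the top (25.7 ± 1.57 CPM per kilobase), above POLR1E (18.3 ± 1.36) and TWISTNB (10.9 ± 1.04), and POLR1D came next (8.45 ± 0.422; SD, n = 3 each). TAF1D and TAF1B had 5.50 ± 0.299 and 5.44 ± 0.553 CPM per kilobase. POLR1B was then at 3.64 ± 0.549 CPM per kilobase, near POLR1C (3.24 ± 0.461), and POLR1A was again lowest at 2.06 ± 0.381 (SD, n = 3 each).

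The large subunits of RNA polymerase I were set beside their counterparts in the other enzymes by the log2 ratio of CPM within each library, a measure that does not depend on scaling. The log2 ratio of POLR1A to POLR2A, the largest subunit of RNA polymerase II, was -1.10 ± 0.19 with DMSO and -2.73 ± 0.20 with WFA (SD, n = 3 each), a change of -1.63. That of POLR1A to POLR3A, the counterpart in RNA polymerase III, changed by -1.35, from 1.26 ± 0.10 to -0.09 ± 0.24 (SD, n = 3 each). POLR1B relative to POLR2B changed by -1.57 and relative to POLR3B by -0.87. The ratio of POLR1B to UBTF changed by -1.52. In each of these ratios, and in those of CD3EAP to POLR1E and POLR1C to POLR1D, the WFA and DMSO libraries did not overlap. For each of the 7 ratios p was 0.1 in an exact permutation test (two-sided), and 0.1 after Benjamini-Hochberg adjustment over them. This is the smallest p that 3 libraries against 3 allow, so none could pass 0.05. The test took all libraries as independent and did not match same-numbered ones. The gene pairs were picked with the fold changes known.

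**Figure D4:**
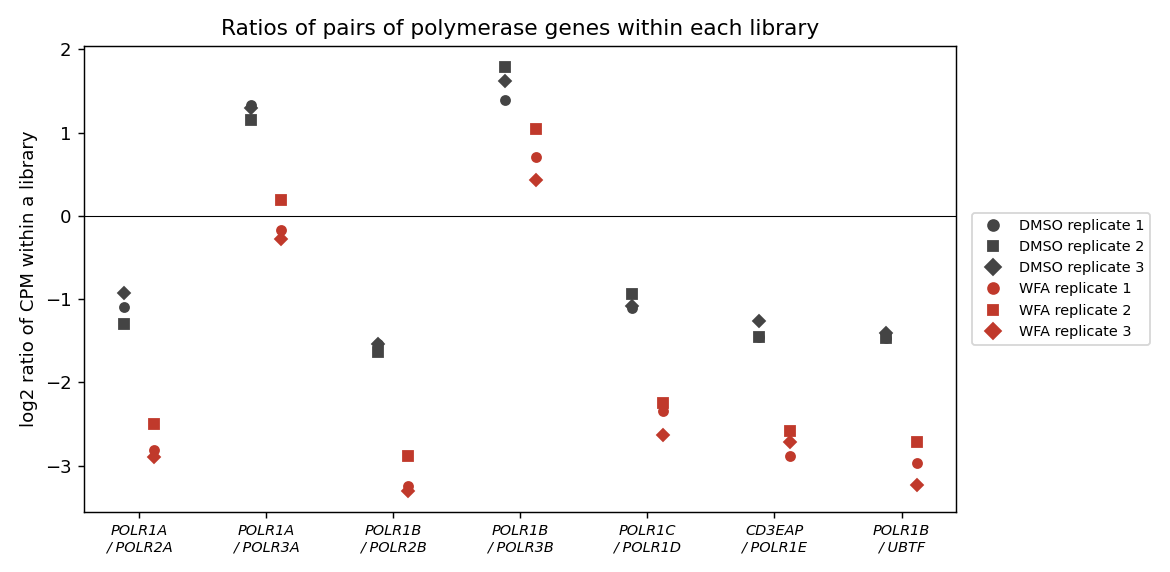
Log2 ratio of the CPM of 2 genes within each library for 7 pairs, with DMSO in grey, WFA in red and a symbol for each replicate number. The WFA libraries lie below the DMSO libraries in each pair, with the shift smallest for POLR1B over POLR3B (-0.87) and largest for POLR1A over POLR2A (-1.63).

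Of the 7 genes for subunits used only by RNA polymerase II, 2 were lower and 0 higher with WFA in edgeR's test, 0 were higher at an unadjusted p under 0.05 or in DESeq2, and the median log2 fold change was -0.12. Over all tested genes 24.7% were called lower and 25.8% higher, and the lower calls among these 7 were near that share. POLR2D fell by 0.84 on the log2 scale (SE 0.09, adjusted p = 2.22e-06) and POLR2B fell by 0.42 on the log2 scale (SE 0.09, adjusted p = 0.000936), while POLR2A had a log2 fold change of -0.05 (95% interval -0.23 to 0.13, adjusted p = 0.651). Of the 11 genes for subunits used only by RNA polymerase III, 9 were lower and 0 higher in edgeR's test, 1 was higher at an unadjusted p under 0.05 (POLR3GL) and 0 in DESeq2, and the median was -0.55. POLR3B fell by 1.12 on the log2 scale (SE 0.13, adjusted p = 5.43e-06). POLR3GL and POLR3G encode alternative forms of one subunit. POLR3G fell by 1.42 on the log2 scale (SE 0.19, adjusted p = 2.08e-05). POLR3GL had a log2 fold change of 0.26 (95% interval 0.03 to 0.49, adjusted p = 0.0579), which passed with the replicate number as a block (0.26, adjusted p = 0.0104). The 9 tested RNA polymerase I genes ranged from -1.97 to -0.13, the RNA polymerase III genes from -1.42 to 0.26 and the RNA polymerase II genes from -0.84 to 0.18, so the ranges overlapped, and the lists were not tested against each other.

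Genes for proteins that act on rDNA transcription from outside the enzyme were mostly lower as well. Of 19 such genes, 15 were called lower and 2 higher, whereas 24.7% of all tested genes were lower and 25.8% higher. The median log2 fold change of the 19 was -1.05. MYC, which stimulates rDNA transcription and that of many ribosome assembly genes, had 158, 166 and 179 CPM with DMSO and 36.4, 38.9 and 33.2 CPM with WFA. It fell by 2.21 on the log2 scale (SE 0.09, adjusted p = 2.49e-10). WDR43, a subunit of the early processing complex that is needed for pre-rRNA transcription, fell by 1.89 on the log2 scale (SE 0.11, adjusted p = 6.75e-09). The 2 genes that rose act in opposite ways. BAZ2A, the large subunit of the nucleolar remodelling complex that silences rDNA repeats, had 109, 117 and 139 CPM with DMSO and 384, 397 and 475 CPM with WFA, and rose by 1.78 on the log2 scale (SE 0.11, adjusted p = 9.75e-09). PHF8, a histone demethylase that favours rDNA transcription, rose by 0.99 on the log2 scale (SE 0.09, adjusted p = 2.77e-07).

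**Figure D5:**
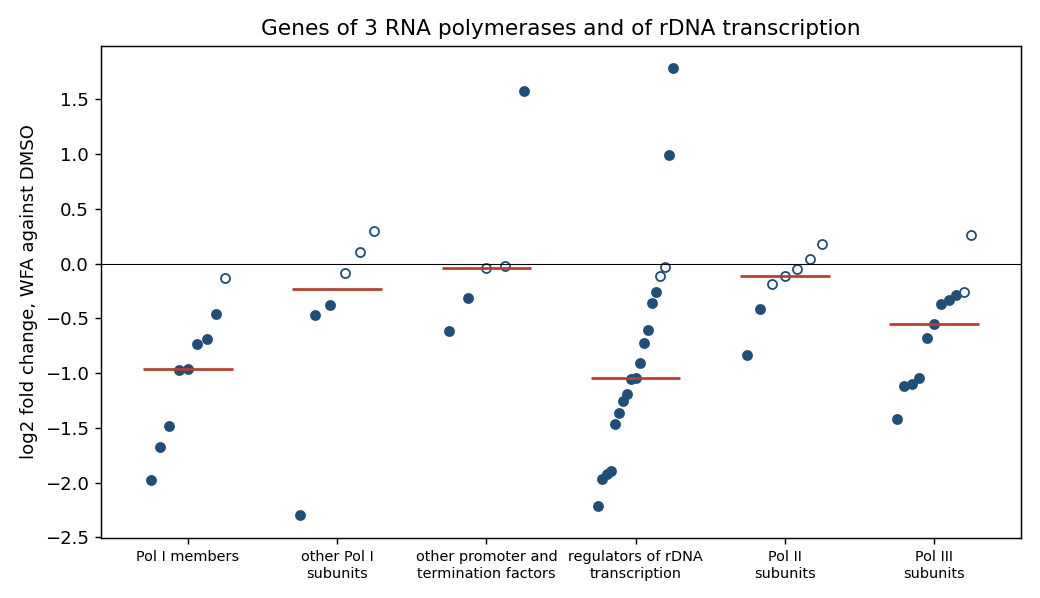
Log2 fold change of WFA against DMSO for each tested gene in 6 lists, with filled points for an edgeR adjusted p-value under 0.05 and a red line at the median of each list. The median is -0.96 for the 9 RNA polymerase I genes, -0.12 for RNA polymerase II and -0.55 for RNA polymerase III, and BAZ2A is the highest point, at 1.78.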

How the data were processed

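RNA was extracted from the 6 THP1 samples and made into libraries with the TruSeq RNA v2 protocol. The deposited file holds raw counts per gene symbol that the authors made from aligned reads. The submitters' processing notes name bcl2fastq 2.19, Trimmomatic, Bowtie2, Picard, featureCounts, DESeq2 and the build hg38. The annotation and the treatment of strand and multiply mapped reads are not given in the sources used here. The other 6 columns of scaled values per library and the columns of the authors' own comparison were not used.

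Counts were compared with edgeR 4.0.16 in R 4.3.3 (TMM, filterByExpr with a minimum count of 10, quasi-likelihood test, Benjamini-Hochberg adjustment over 12854 genes, threshold 0.05). Standard errors are the fold change divided by the root of the F statistic. P-values rest on 4 residual and 10.8 prior degrees of freedom. Replicate numbers came from the labels, and same-numbered libraries share a tag in their descriptions. Same-numbered libraries deviated together from their group means (across-gene correlations of 0.217, 0.333 and 0.245, against -0.256 to 0.00369 for other pairs), so a fit with the number as a block was an alternative, beside DESeq2 1.42.0, other scalings and filters, a robust fit and leaving out each library. Simulated counts were also passed through edgeR, with and without the block, and through DESeq2. The outcome is not given here, and no call is judged by it. Within a group the libraries varied beyond sampling noise, with a chi-square of 5.67 to 10.4 per gene, and each was counted as 1 replicate. The precision of counts is set by 11006035 to 13872810 reads per library, and floors cover counting error only.

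The genes and lists were chosen with earlier results of these data known. All members and the other subunits and promoter or termination factors were named whatever their result, and of the other lists the 2 genes with the smallest p-values and up to 2 that went against the rest, together with POLR2A, POLR3A, POLR3G and POLR3GL, picked after their values were seen. A few genes that this rule or the marker lists would name are not reported here. Positions and promoter windows are from RefSeq, GRCh38.p14, the same assembly as hg38, with 9 of 10 genes matched to a window.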

Additional observations from a re-analysis of the deposited data

How the results depend on the processing

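Lower calls among the 9 tested RNA polymerase I genes numbered 8 or 9 under 13 alternatives, 9 being with total counts in place of TMM, and the median log2 fold change of these genes stayed between -1.05 and -0.89. Without one library it was between -1.03 and -0.89. The log2 fold changes without one library were between -2.10 and -1.89 for POLR1B, -1.84 and -1.57 for POLR1A, -1.60 and -1.39 for POLR1C, -0.83 and -0.56 for TAF1D, and -0.16 and -0.09 for POLR1D. With the replicate number as a block, 1 of the other RNA polymerase I subunits (POLR2L) and 1 RNA polymerase III subunit (POLR3GL) were higher, against 0 of each without it, and it changed no other call on these lists. That fit has 2 residual degrees of freedom and infinite prior ones, so each gene's own spread does not enter its p-values. They can be far smaller than in the main fit. For POLR1A the adjusted p was 1.80e-66, against 8.52e-08 in the main fit. Without one library, higher calls ranged from 0 to 1 among the other RNA polymerase I subunits (1 without WFA replicate 1) and from 0 to 1 among RNA polymerase III subunits (1 without DMSO replicate 2 or WFA replicate 1), and lower calls from 1 to 2 among the other promoter and termination factors (1 without DMSO replicate 3 or WFA replicate 2, the call of TBP). Lower calls among the 11 RNA polymerase III subunits were 8 without DMSO replicate 3, WFA replicate 1 or WFA replicate 2, 10 with total counts, and 9 under the other settings. Lower calls among the 19 regulators were 14 without DMSO replicate 1 or 2 or WFA replicate 2 or 3, and 15 under the other settings. The sign turned for TAF1C, with log2 fold changes between -0.14 and 0.13 without one library, and for TTF1, between -0.10 and 0.0073. Total counts in place of TMM moved the median of all genes by -0.0847 (log2). Over all tested genes, lower calls ranged from 2815 to 3875 and higher calls from 2763 to 3877. RRN3 was below the filter on low counts and is left out of these medians, so its sum with the pseudogenes has no value to be set against. No other cause of these shifts was tested.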
